A study of Mus musculus with 16 samples.

Results

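The 34 genes described here make, carry and sense bile acids: 13 of bile acid synthesis, 6 of uptake, 10 of export and 5 of sensing. They were chosen by gene symbol from knowledge of the pathway, with earlier results of these data known. Counts of members set beside those of all genes are therefore descriptive. All 34 were found, each with 1 probe set, among the 23279 genes measured. RNA came from liver of male mice aged 16 months. The 3 control livers came from mice without the deletion, and the labels do not say which Axin1 alleles or transgene those mice carried. The adjacent livers (5 mice) and the tumours (6 mice) came from animals with homozygous floxed Axin1, which encodes a scaffold of the beta-catenin destruction complex, and the Alfp-Cre transgene, in which Cre recombinase is active in hepatocytes from embryonic life on. Mouse 121 gave 3 tumours, so there were 8 tumour arrays and 16 arrays in all. Mice 121, 123, 124 and 81 gave both tumour and adjacent liver.

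Hepatocytes convert cholesterol to bile acids by hydroxylating the sterol ring, shortening the side chain in peroxisomes and joining the product to taurine or glycine. Bile salts are pumped across the canalicular membrane into bile, return from the gut by portal blood and are taken up again through the sinusoidal membrane. The nuclear receptor FXR, encoded by Nr1h4, senses them and limits synthesis, partly through SHP (Nr0b2) and partly through the gut hormone FGF15, which acts on FGFR4 and beta-klotho at the hepatocyte surface. In cholestasis, hepatocytes can also send bile salts back to blood through basolateral pumps such as MRP4 (Abcc4).

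Values are log2 expression values, so a difference of 1 is a doubling. The tissue was whole liver or tumour, in which fewer cells of a type and less RNA per cell cannot be told apart. Hepatocyte markers such as Alb and Ttr were near the top of the measured range in every group, where differences are hard to see, and Ass1 of the same list was dim in controls. The mean log2 level of the 8 markers lay between 11.09 and 11.24 in controls, 11.05 and 11.34 in adjacent livers and 10.98 and 11.29 in tumours. Across genes the correlation of tumour 93 with the control mean was r = 0.987, the highest of the tumour arrays, and that of tumour 3 of mouse 121 was 0.985. Both lay within the adjacent range of 0.984 to 0.991, and the other 6 tumour arrays lay between 0.953 and 0.981. Each control, against the mean of the other controls, lay between 0.973 and 0.985, and tumour 124 at 0.981 was within that range. Each mouse was left out of 1 group at a time, so for a paired mouse its other tissue stayed in the fit. Values without tumour 93 are given where a call depends on it. Because that tumour resembles liver, leaving it out widens tumour differences by construction, so calls made without it show only how far the counts depend on 1 animal. Control 10 was high in macrophage markers (mean log2 level 8.60 over 9 markers, against 6.09 and 5.34 in the other controls).

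Median differences between tumours and livers were below 0 for uptake, synthesis and sensing genes and near 0 for export genes, among which Abcc4 had a high positive difference. Tumours were unequal: the synthesis median against the control mean lay between -0.07 and 0.16 on 4 of the 8 tumour arrays and between -1.23 and -0.55 on the other 4. Against adjacent liver the median log2 difference was -1.46 over the 6 uptake genes, -0.91 over the 13 synthesis genes, -0.66 over the 5 sensing genes and 0.03 over the 10 export genes, where all 23279 genes had a median of -0.03. Against control liver the medians were -1.25, -0.72, -0.53 and 0.22, with -0.04 over all genes. The 2 comparisons share the tumours, so they are not independent.

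No single member passed the threshold of an adjusted p under 0.05 over all genes in any of the 3 comparisons (limma, 0 of 34 each). Between tumour and adjacent liver 0.155% of all genes passed (0.142% higher and 0.0129% lower), between tumour and control 0.0258% (0.0129% higher and 0.0129% lower), and between adjacent and control 0%. A random replicate block for the mouse was also fitted, in which the 8 tumour arrays entered as separate values and were not averaged. The fitted within-mouse correlation was 0.0732, so the 3 tumours of mouse 121 counted almost as independent values. In that setting 1 member, Abcc4, passed against adjacent liver, where 206 genes did, 0.614% higher and 0.271% lower. Against control 0 members passed, where 0.0473% of all genes were higher and 0.0558% lower. At an unadjusted p under 0.05, 15 members were lower and 4 higher in tumour than in adjacent liver, where 8.32% of all genes were lower and 6.95% higher. Against control liver 12 were lower and 3 higher, with 6.88% and 5.65% of all genes. Without tumour 93, 8 members passed the adjusted threshold between tumour and adjacent liver, 6 lower (Cyp8b1, Cyp27a1, Slc27a5, Slc10a1, Slco1a1 and Nr1h4) and 2 higher (Abcb1a and Abcc4), where 1.53% of all genes were lower and 1.66% higher. Leaving out tumour 93 also raised the number of all genes called from 36 to 743. Against control 1 member, Abcc4, then passed, where 0.64% of all genes were higher and 0.4% lower.

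**Figure D1:**
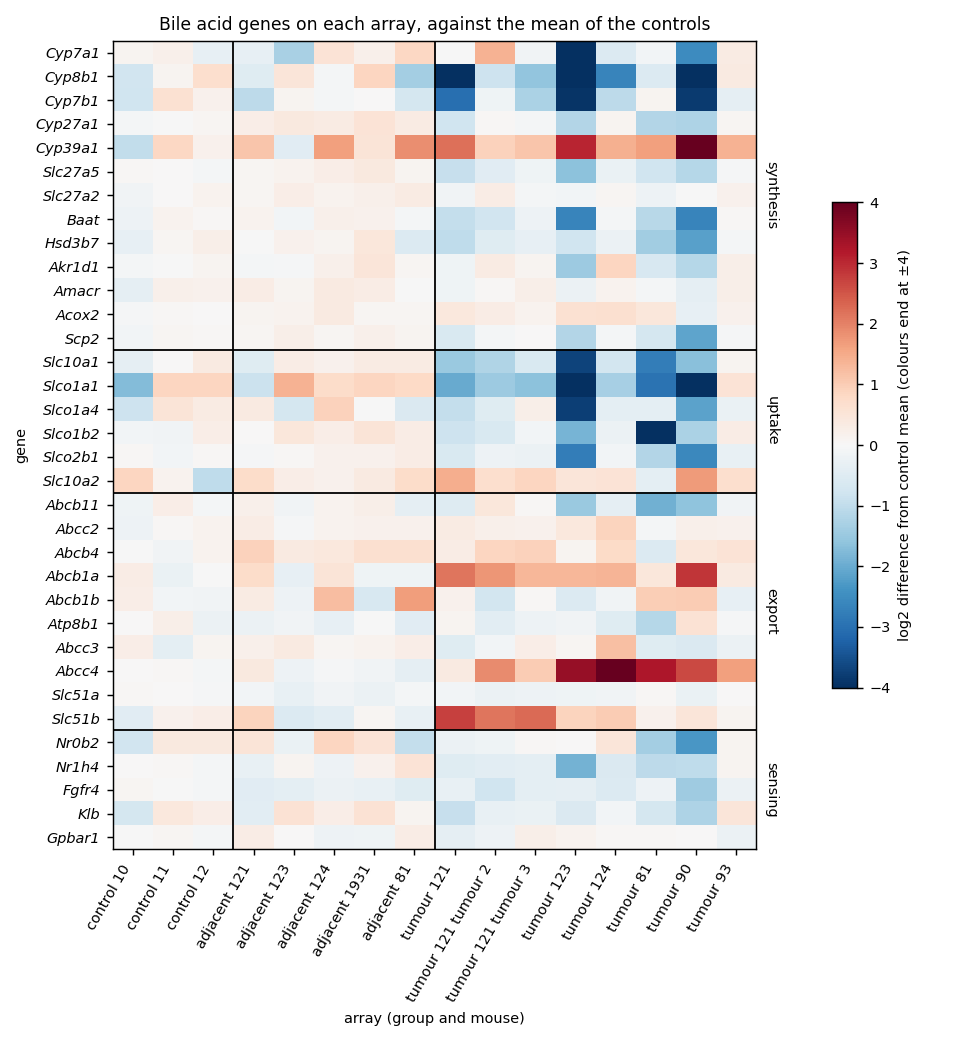
Log2 difference of each of the 34 genes (rows, ordered by synthesis, uptake, export and sensing) from the control mean on each of the 16 arrays (columns, labelled by group and mouse), with blue for lower, red for higher and colours ending at 4 in either direction. Tumours 123 and 90 are blue over most synthesis and uptake genes, tumour 93 is close to the controls, and Abcc4 and Cyp39a1 are red in most tumours.

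Promoter sequences are shown for 4 transporters that were lower in tumours and for 2 ABC pumps that were not, since the same nuclear receptors and stress factors are known to act on such promoters. RefSeq windows of 250 bases before to 50 after a transcript start were at hand for 26 of the 34 genes. The last 150 bases before the start are printed 5′ to 3′ on the gene's strand, build GRCm38.p6; where a gene has 2 listed starts (Slc10a1 and Abcc4) the window with more matches was taken, or the first listed for Abcc4, whose windows have 1 match each. Capitals mark AGGTCA, the hexamer bound by many nuclear receptors, or TGACNNNGC, the core of the antioxidant response element bound by NRF2, on either strand.
Slc10a1: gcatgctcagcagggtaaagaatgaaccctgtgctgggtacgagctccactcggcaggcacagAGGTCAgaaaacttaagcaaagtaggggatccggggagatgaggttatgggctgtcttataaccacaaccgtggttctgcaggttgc
Slco1a1: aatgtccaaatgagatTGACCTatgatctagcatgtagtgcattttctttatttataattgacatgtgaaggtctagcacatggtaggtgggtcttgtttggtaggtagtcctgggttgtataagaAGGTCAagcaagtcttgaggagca
Slco1b2: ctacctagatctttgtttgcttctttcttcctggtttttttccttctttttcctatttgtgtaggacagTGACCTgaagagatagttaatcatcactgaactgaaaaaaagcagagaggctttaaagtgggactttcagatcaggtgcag
Abcb11: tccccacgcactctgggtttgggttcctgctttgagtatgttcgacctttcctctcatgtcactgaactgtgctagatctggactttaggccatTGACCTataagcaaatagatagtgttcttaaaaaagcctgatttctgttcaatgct
Abcc4: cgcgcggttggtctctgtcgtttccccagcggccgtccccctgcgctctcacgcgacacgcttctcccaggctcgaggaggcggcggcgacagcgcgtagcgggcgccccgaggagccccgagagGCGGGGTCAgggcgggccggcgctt
Abcc2: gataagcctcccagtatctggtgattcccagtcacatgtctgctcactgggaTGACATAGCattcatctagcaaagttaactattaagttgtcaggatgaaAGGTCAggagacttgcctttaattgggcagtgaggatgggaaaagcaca
They lie at chr12:80968080-80968229, minus strand, at chr6:141946963-141947112, minus strand, at chr6:141629368-141629517, plus strand, at chr2:69342617-69342766, minus strand, at chr14:118706220-118706369, minus strand and at chr19:43782158-43782307, plus strand, in that order. These 6 were picked with their values and matches known, so that each holds a match is no finding. AGGTCA stands in the 4 transporters that were lower, at 2 places in Slco1a1, and in Abcc2, and TGACNNNGC in Abcc4 and Abcc2. Over the full windows AGGTCA was found in 11 of the 31 windows of these 26 genes and in 16.3% of all 32851 windows, and TGACNNNGC in 9 of the 31 and in 12.4% of all windows. The exact inverted repeat of this hexamer with 1 base between the copies, a form to which FXR binds, was in 0 of the 31 windows. It was in 0.00913% of all windows. The direct repeat with 1 base between was in 0 of the 31 windows and in 0.0396%. Both pairs contain the single hexamer, and both were searched on either strand as exact letters only. Copies with a changed base were not counted, such as aggccatTGACCT in the printed Abcb11 sequence. Exact pairs are rare in all windows, so 0 of 31 does not show that such repeats are absent. A match is a run of letters and was not tested as a binding site.

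Among the sterol hydroxylases, Cyp8b1 and Cyp7b1 were lower in part of the tumours and Cyp7a1 was low in 2 of them. Cyp7a1 (Entrez gene 13122), the rate-limiting enzyme of the classic pathway, measured 8.87, 8.96 and 8.43 in controls and 8.44, 7.45, 9.30, 8.97 and 9.58 in adjacent livers of mice 121, 123, 124, 1931 and 81. Tumour values of Cyp7a1 were 8.75, 10.15 and 8.61 in mouse 121, 3.05 in mouse 123, 8.21 in mouse 124, 8.64 in mouse 81, 6.24 in mouse 90 and 9.07 in mouse 93. Tumour 123 was the lowest of all samples and tumour 90 the next lowest, and the other 6 tumour arrays lay above the lowest adjacent liver. The log2 difference was -1.35 (SE 0.89, adjusted p = 0.513) against adjacent and -1.36 (SE 1.04, adjusted p = 0.634) against control liver, and without tumour 123 it was -0.48 (adjusted p = 0.759) and -0.49 (adjusted p = 0.825).

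Cyp8b1, the hydroxylase that steers synthesis to cholic acid, measured 8.54, 9.40 and 9.96 in controls and 8.80, 9.78, 9.22, 10.17 and 7.94 in adjacent livers. Tumour values of Cyp8b1 were 5.20, 8.48 and 7.71 in mouse 121, 4.95 in mouse 123, 6.65 in mouse 124, 8.76 in mouse 81, 4.83 in mouse 90 and 9.67 in mouse 93. Tumours 90, 123 and the unnumbered tumour of mouse 121 were far below every non-tumour liver, while tumours 93 and 81 and tumour 2 of mouse 121 were within the range of these livers. The log2 difference was -2.19 (SE 0.77, adjusted p = 0.183) against adjacent liver, a 4.55-fold lower level, and -2.31 (SE 0.90, adjusted p = 0.305) against control. Without tumour 93 it was -2.72 (adjusted p = 0.0436) against adjacent liver, which passed, and -2.84 (adjusted p = 0.0934) against control, which did not.

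The oxysterol hydroxylases had differences of opposite sign. Cyp7b1, which hydroxylates oxysterols in the alternative pathway, measured 9.40, 10.79 and 10.36 in controls, 9.15, 10.31, 10.11, 10.19 and 9.49 in adjacent livers and from 6.27 through a median of 8.92 to 10.30 in the 6 tumour mice (log2 difference from adjacent liver -1.42, SE 0.66, adjusted p = 0.321). Cyp39a1, the other oxysterol hydroxylase, which acts on cholesterol hydroxylated in the side chain, measured 4.57, 6.38 and 5.72 in controls and 6.68, 5.11, 7.21, 6.08 and 7.41 in adjacent livers. Tumour values of Cyp39a1 were 7.75, 6.48 and 6.68 in mouse 121, 8.61 in mouse 123, 6.99 in mouse 124, 7.20 in mouse 81, 9.76 in mouse 90 and 6.94 in mouse 93, so tumours 90 and 123, the lowest 2 for Cyp7b1 and Cyp8b1, were the highest 2 for Cyp39a1. All 6 tumour mice lay above all 3 controls, with a log2 difference of 2.19 (SE 0.65, adjusted p = 0.184), whereas tumours overlapped adjacent livers (1.24, SE 0.56, adjusted p = 0.302). Groups without overlap were found in 2.11% of all genes in the direction tumour above control and in 3.08% in the other direction, 5.18% in all. Of the members, Cyp39a1, Abcb1a and Abcc4 lay above all controls without overlap and Slco2b1 and Fgfr4 below them. Without tumour 90 the difference of Cyp39a1 from adjacent liver was 0.84 (adjusted p = 0.458).

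Cyp27a1, the mitochondrial enzyme that opens the alternative pathway and oxidises the side chain, and Slc27a5, the bile acid-CoA ligase that recycles returning bile acids, had the smallest adjusted p among the synthesis genes in tumour against adjacent liver. Cyp27a1 measured 10.24, 10.32 and 10.42 in controls, 10.58, 10.72, 10.66, 10.88 and 10.65 in adjacent livers and from 9.09 through a median of 9.60 to 10.45 in tumour mice, all 6 below all 5 adjacent livers (-0.98, SE 0.24, adjusted p = 0.0862). Slc27a5 measured 10.48, 10.44 and 10.34 in controls, 10.50, 10.57, 10.68, 10.81 and 10.53 in adjacent livers and from 8.79 through a median of 9.77 to 10.36 in tumour mice, again without overlap with adjacent liver (-0.93, SE 0.22, adjusted p = 0.0825). Both levels were about 2-fold lower than in adjacent liver (1.98-fold and 1.91-fold). In both genes the adjacent livers lay above all 3 controls, by 0.37 (SE 0.30) and 0.20 (SE 0.27), and tumours overlapped controls (-0.61 and -0.74). Tumour below adjacent liver without overlap was seen in 4 members, these 2 with Scp2 and Slco2b1, and in 1.11% of all genes. Tumour above adjacent liver without overlap was seen in 1 member, Abcc4, and in 1.12% of all genes, so that 5 of 34 members had no overlap, with 2.23% of all genes.

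Most other enzymes of synthesis were also lower, mostly by less. Baat, which joins bile acids to taurine or glycine, measured 9.08, 9.44 and 9.34 in controls, 9.42, 9.17, 9.50, 9.45 and 9.21 in adjacent livers and from 6.63 through a median of 8.41 to 9.32 in tumour mice (-1.24, SE 0.44, adjusted p = 0.185 against adjacent). Its lowest tumours were 123 at 6.63 and 90 at 6.66, and its highest, 93, was within the range of non-tumour liver. Scp2, the sterol carrier protein with the thiolase that ends peroxisomal side chain shortening, measured 11.31, 11.52 and 11.48 in controls, 11.51, 11.67, 11.51, 11.65 and 11.54 in adjacent livers and from 9.32 through a median of 10.97 to 11.40 in tumour mice (-0.86, SE 0.30, adjusted p = 0.176). Hsd3b7, the sterol dehydrogenase that follows ring hydroxylation, measured 8.88, 9.27 and 9.43 in controls, 9.19, 9.37, 9.30, 9.64 and 8.64 in adjacent livers and from 7.01 through a median of 8.49 to 9.12 in tumour mice (-0.91, SE 0.32, adjusted p = 0.18). For each of these 3 genes tumour 93 lay at or near the adjacent range and tumour 90 at or close to the bottom. Slc27a2, a very long-chain acyl-CoA synthetase, was at 11.21, 11.35 and 11.47 in controls, 11.43, 11.62, 11.48, 11.53 and 11.66 in adjacent livers and from 11.14 through a median of 11.35 to 11.51 in tumour mice, a small difference of -0.22 (SE 0.09, adjusted p = 0.271) from adjacent liver and -0.01 from control. The remaining 3 synthesis genes had an unadjusted p above 0.05 in both tumour comparisons: the reductase Akr1d1 at -0.47 (SE 0.33), the racemase Amacr at -0.26 (SE 0.14) and the peroxisomal oxidase Acox2 at 0.15 (SE 0.15) against adjacent liver.

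Uptake transporters had the lowest subgroup median in both tumour comparisons. Slc10a1 (Entrez gene 20493), which encodes NTCP, the sodium-dependent carrier for most bile salt uptake, measured 10.23, 10.62 and 10.97 in controls and 10.13, 10.90, 10.79, 10.94 and 10.92 in adjacent livers. Tumour values of Slc10a1 were 9.13, 9.39 and 10.01 in mouse 121, 6.89 in mouse 123, 9.86 in mouse 124, 7.85 in mouse 81, 8.94 in mouse 90 and 10.71 in mouse 93. Tumours 123 and 81 were the lowest, and only tumour 93 lay within the range of the non-tumour livers. The mean was 3.42-fold lower than in adjacent liver, a log2 difference of -1.77 (SE 0.52, adjusted p = 0.127), and -1.64 (SE 0.60, adjusted p = 0.276) against control. Without tumour 93 it was -2.12 (adjusted p = 0.0268) against adjacent liver.

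Slco1a1, an organic anion transporter of the sinusoidal membrane known for higher expression in male mice, had the lowest log2 difference of all members. It measured 7.67, 10.27 and 10.26 in controls, where control 10 was low, and 8.52, 10.77, 10.13, 10.25 and 10.21 in adjacent livers, where mouse 121 was low. Tumour values of Slco1a1 were 7.38, 7.95 and 7.75 in mouse 121, 3.37 in mouse 123, 8.07 in mouse 124, 6.44 in mouse 81, 4.61 in mouse 90 and 9.95 in mouse 93. The mean was 9.75-fold lower than in adjacent liver (-3.29, SE 0.96, adjusted p = 0.127), and tumour 93 was the 1 tumour array above 8.07. Against control the difference was -2.70 (SE 1.12, adjusted p = 0.335). Without tumour 93 it was -3.94 (adjusted p = 0.0267) against adjacent liver and -3.36 (adjusted p = 0.114) against control, and without control 10 it was -3.57 (adjusted p = 0.241) against control.

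Slco1b2, the mouse counterpart of the human hepatic OATP1B carriers, measured 10.61, 10.58 and 10.97 in controls and 10.73, 11.18, 10.99, 11.25 and 11.03 in adjacent livers. Tumour values of Slco1b2 were 9.90, 10.11 and 10.62 in mouse 121, 8.88 in mouse 123, 10.48 in mouse 124, 6.67 in mouse 81, 9.46 in mouse 90 and 11.01 in mouse 93. Here tumour 81, not 123 or 90, was the lowest by a wide margin, and the difference from adjacent liver was -1.59 (SE 0.56, adjusted p = 0.187), or -1.03 (adjusted p = 0.152) without it. Slco2b1, another organic anion carrier, measured 8.35, 8.18 and 8.34 in controls, 8.26, 8.33, 8.46, 8.45 and 8.58 in adjacent livers and from 5.52 through a median of 7.54 to 8.18 in tumour mice (-1.34, SE 0.43, adjusted p = 0.154), and the tumour mice overlapped neither controls nor adjacent livers, though tumour 124 lay just under the lowest control. Slco1a4, a close relative of Slco1a1, was at -1.23 (SE 0.58) against adjacent liver and lowest in tumours 123 at 4.18 and 90 at 5.82. Slco1a1 and Slco1a4 are direct neighbours on chromosome 6, and 1 coding gene lies between Slco1a4 and Slco1b2. Whether the probe sets keep such relatives apart is not given in the sources used here.

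Slc10a2, which encodes the sodium-dependent carrier of ileum and bile duct cells, was the uptake gene that was not lower. It lay between 6.46 and 8.33 in controls and at 0.21 (SE 0.34) against adjacent liver, with tumour 90 highest at 9.17. Its level was above the median of all values, 4.43, on every array. Of 8 cholangiocyte markers 6, Krt19, Krt7 and Epcam among them, had group means under that median in all 3 groups. Sox9 and Tspan8 of that list had group means above it in all 3 groups. Of the 6 ileal enterocyte markers 4, Fabp6 and Fgf15 among them, were as dim. Fabp2 of that list had group means of 9.68 in controls, 10.75 in adjacent livers and 9.95 in tumours. Vil1 was dim in controls and adjacent livers but not in tumours, at a mean of 4.84. The cell source of the Slc10a2 signal was not tested.

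**Figure D2:**
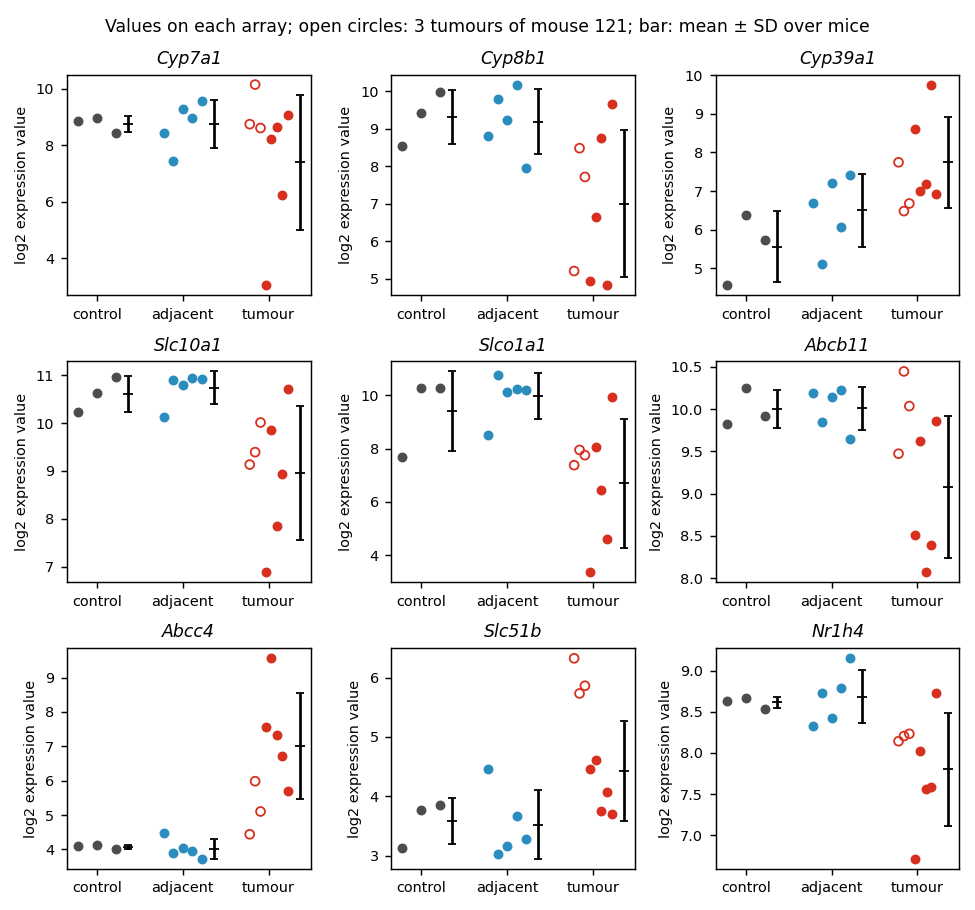
Log2 expression value of 9 genes on each array in control, adjacent and tumour tissue, with open circles for the 3 tumours of mouse 121 and a bar for the mean ± SD over mice. Tumour values of Cyp7a1, Cyp8b1, Slc10a1 and Slco1a1 spread from the level of normal liver to several log2 units below it, while Abcc4 is higher in all but 1 tumour array than in any non-tumour liver.

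Of the canalicular pumps, the bile salt export pump was lower and 3 other canalicular transporters had differences near 0. Abcb11, which encodes this pump, measured 9.83, 10.25 and 9.92 in controls and 10.19, 9.85, 10.14, 10.23 and 9.65 in adjacent livers. Tumour values of Abcb11 were 9.47, 10.45 and 10.04 in mouse 121, 8.51 in mouse 123, 9.63 in mouse 124, 8.07 in mouse 81, 8.39 in mouse 90 and 9.86 in mouse 93. Tumours 81, 90 and 123 lay more than 1 log2 unit below the lowest non-tumour liver, and the other tumours lay within the range of non-tumour liver or just outside it, with a log2 difference of -0.94 (SE 0.32, adjusted p = 0.175) from adjacent liver and -1.09 (adjusted p = 0.0744) without tumour 93. Abcc2, the conjugate pump MRP2, was at 0.16 (SE 0.14), Abcb4, the phosphatidylcholine floppase, at -0.26 (SE 0.21), and Atp8b1, the phosphatidylserine flippase of the canaliculus, at -0.00 (SE 0.23) against adjacent liver. Abcb4 was the 1 member with an unadjusted p under 0.05 between adjacent and control liver, at 9.24, 8.66, 8.72, 8.93 and 8.95 against 8.30, 8.18 and 8.45 (0.59, SE 0.25, adjusted p = 0.999), where 1.61% of all genes were higher and 2.94% lower. Those groups did not overlap, and tumours did overlap both.

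The genes Abcb1a, Abcb1b and Abcb4 stand next to each other on chromosome 5, and their tumour levels differed. Abcb1a, a multidrug pump of canaliculi and of capillary endothelium, measured 5.45, 4.91 and 5.14 in controls and 5.90, 4.85, 5.69, 5.01 and 5.01 in adjacent livers. Tumour values of Abcb1a were 7.29, 6.93 and 6.50 in mouse 121, 6.48 in mouse 123, 6.52 in mouse 124, 5.61 in mouse 81, 8.01 in mouse 90 and 5.52 in mouse 93, so all lay above all controls and tumour 90 was highest. The log2 difference was 1.22 (SE 0.37, adjusted p = 0.139) against adjacent and 1.34 (SE 0.43, adjusted p = 0.21) against control liver. Without tumour 93 it passed against adjacent liver, at 1.41 (adjusted p = 0.0472), and without tumour 90 it was 0.92 (adjusted p = 0.178). Among 10 endothelial markers 5 were higher, such as Emcn at 1.69 (SE 0.33) and Pecam1 at 1.03 (SE 0.26), and 2 lower, Stab2 at -1.31 (SE 0.39) and Clec4g at -2.41 (SE 0.68), at an unadjusted p under 0.05; their mean log2 level lay between 6.14 and 6.42 in adjacent livers and 5.91 and 6.96 in tumours, and 0 of the 10 were dim in all groups. Between tumour and adjacent liver 8.32% of all genes were lower and 6.95% higher at that threshold. The part of endothelial cells in the Abcb1a difference was not tested. Abcb1b, a close paralog of Abcb1a, was dim in all 3 groups and at -0.34 (SE 0.40); the split between these 2 genes depends on the probes and is uncertain.

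Abcc4 (Entrez gene 239273), the basolateral pump MRP4, had the highest log2 difference of all members in both tumour comparisons. It measured 4.10, 4.13 and 4.02 in controls and 4.48, 3.89, 4.04, 3.95 and 3.73 in adjacent livers, levels at or under the median of all values but for adjacent mouse 121. Tumour values of Abcc4 were 4.44, 5.99 and 5.10 in mouse 121, 7.56 in mouse 123, 9.56 in mouse 124, 7.32 in mouse 81, 6.72 in mouse 90 and 5.71 in mouse 93. Adjacent livers averaged 4.02 ± 0.28 (SD, n = 5) and tumour mice 7.01 ± 1.55 (SD, n = 6). No fold is given, since the adjacent and control means are dim. All 6 tumour mice lay above all control and adjacent livers; of single arrays, the unnumbered tumour of mouse 121 did not exceed its own adjacent liver.

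The log2 difference of Abcc4 was 2.99 (SE 0.56, adjusted p = 0.0544) against adjacent and 2.93 (SE 0.66, adjusted p = 0.106) against control liver, both outside the threshold. Against adjacent liver it passed with a random replicate block for the mouse and 8 tumours as separate values (2.60, adjusted p = 0.0472). It also passed with dim genes filtered out (2.99, adjusted p = 0.0387), and without tumour 93 (3.25, adjusted p = 0.0112), tumour 124 (2.48, adjusted p = 0.0266), the tumours of mouse 121 (3.36, adjusted p = 0.0402) or tumour 90 (3.05, adjusted p = 0.0444). With a fixed replicate block for the 4 paired mice it was 3.37 (adjusted p = 0.154). Against control it passed without tumour 93 (3.19, adjusted p = 0.0361). Over the 23 alternatives run, its adjusted p against adjacent liver ranged from 0.0112 to 0.157. It passed only in those named here as passing, and in most of the 23 it did not.

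Tumour 124 was the highest tumour for Abcc4, for Abcc3 and for Abcc2. Abcc3, the basolateral conjugate pump MRP3, was at 10.49 there, against 8.72 to 9.36 in the other 5 tumour mice, and its group difference was -0.23 (SE 0.25) against adjacent liver. Abcc2 was at 11.27 there. The NRF2 targets Nqo1, Srxn1, Gclc and Txnrd1, chosen after their values were seen, were also highest in tumour 124, at 9.27, 9.91, 11.37 and 9.21, and their part in the pump levels was not tested. Over all tumours Nqo1 was at 1.70 (SE 0.43, adjusted p = 0.0929), Srxn1 at 1.62 (SE 0.35, adjusted p = 0.0643), Gclc at 0.60 (SE 0.27, adjusted p = 0.311) and Txnrd1 at 0.37 (SE 0.22, adjusted p = 0.465) against adjacent liver.

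Slc51a and Slc51b encode the subunits of the basolateral organic solute transporter, which needs both. Slc51a stayed dim everywhere, between 2.83 and 3.16 over all mice. By its group means Slc51b was dim too, at 3.59 in controls, 3.52 in adjacent livers and 4.43 in tumours, the last just under the median of all values. Slc51b measured 3.13, 3.76 and 3.86 in controls and 4.46, 3.04, 3.16, 3.67 and 3.29 in adjacent livers. Tumour values of Slc51b were 6.33, 5.73 and 5.86 in mouse 121, 4.47 in mouse 123, 4.61 in mouse 124, 3.75 in mouse 81, 4.08 in mouse 90 and 3.70 in mouse 93. The 3 tumours of mouse 121 were the 3 highest values and each lay at least 1.27 above the animal's own adjacent liver, itself the highest of the adjacent livers. The difference from adjacent liver was 0.91 (SE 0.37, adjusted p = 0.247) and without mouse 121 among the tumours 0.60 (adjusted p = 0.322).

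**Figure D3:**
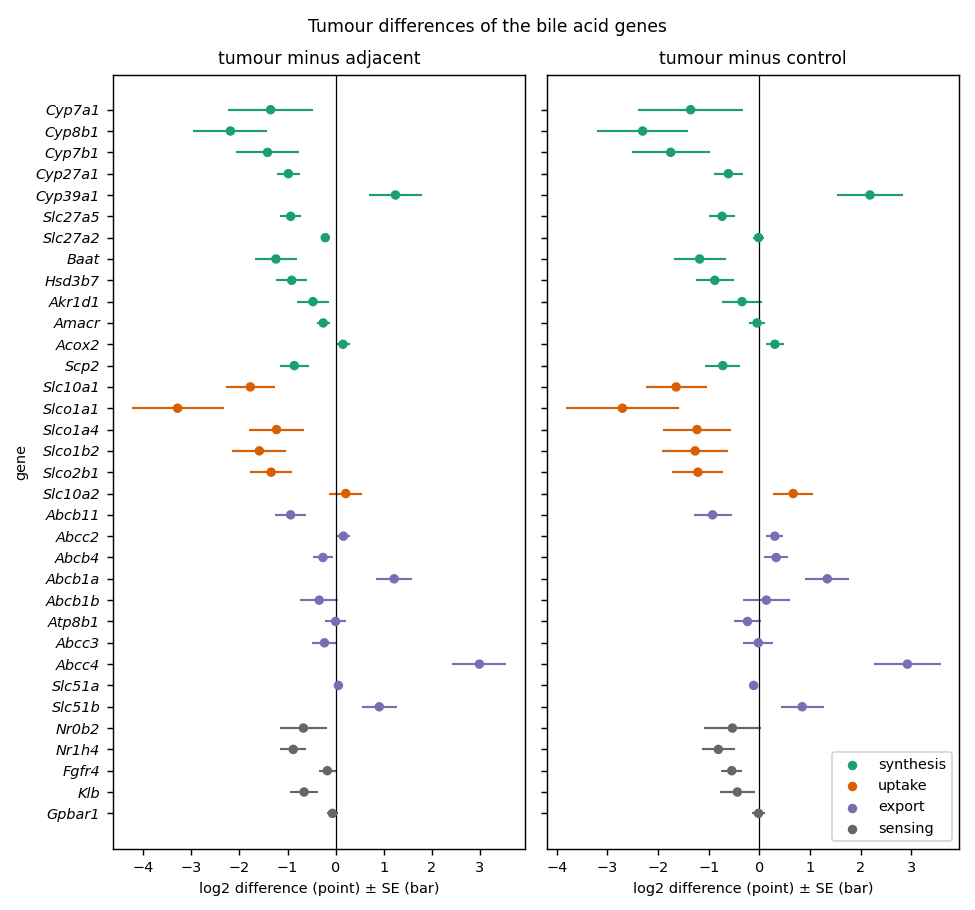
Log2 difference (points) with its standard error (bars) of each of the 34 genes between tumour and adjacent liver (left) and tumour and control liver (right), coloured by synthesis, uptake, export and sensing. In both panels 5 of the 6 uptake genes lie below 0, and Abcc4 stands farthest to the right.

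The bile acid receptor was lower and its target Nr0b2 varied widely. Nr1h4, which encodes FXR, measured 8.64, 8.67 and 8.54 in controls and 8.33, 8.72, 8.42, 8.79 and 9.15 in adjacent livers. Tumour values of Nr1h4 were 8.14, 8.21 and 8.23 in mouse 121, 6.71 in mouse 123, 8.03 in mouse 124, 7.57 in mouse 81, 7.59 in mouse 90 and 8.73 in mouse 93. Only tumour 93 exceeded the controls, tumour 123 was lowest, and the 3 tumours of mouse 121 lay within 0.09 of each other. The difference was -0.88 (SE 0.27, adjusted p = 0.145) against adjacent liver, -1.07 (adjusted p = 0.0338) without tumour 93, and -0.81 (SE 0.32, adjusted p = 0.315) against control.

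Nr0b2, encoding the repressor SHP, measured 7.37, 8.54 and 8.52 in controls and 8.67, 7.87, 9.01, 8.69 and 7.17 in adjacent livers. Tumour values of Nr0b2 were 7.91, 7.97 and 8.18 in mouse 121, 8.16 in mouse 123, 8.64 in mouse 124, 6.78 in mouse 81, 5.81 in mouse 90 and 8.25 in mouse 93. Tumours 90 and 81 were below every non-tumour liver and the others within their range, so that the difference was -0.67 (SE 0.48, adjusted p = 0.555) against adjacent liver and -0.31 (adjusted p = 0.793) without tumour 90. Tumour 123, which had the lowest Nr1h4 and Cyp7a1, thus had Nr0b2 at the level of non-tumour liver.

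Of the FGF15 receptor pair, Klb, beta-klotho, measured 6.28, 7.39 and 7.26 in controls, 6.54, 7.57, 7.25, 7.54 and 7.09 in adjacent livers and from 5.74 through a median of 6.44 to 7.47 in tumour mice (-0.66, SE 0.29, adjusted p = 0.3 against adjacent). Fgfr4, the receptor kinase, measured 6.65, 6.55 and 6.47 in controls, 6.11, 6.17, 6.32, 6.27 and 6.06 in adjacent livers and from 5.13 through a median of 6.13 to 6.36 in tumour mice. Both adjacent livers and tumours of the deleted mice lay below all controls in Fgfr4, by -0.37 (SE 0.22, adjusted p = 0.999) and -0.54 (SE 0.21, adjusted p = 0.306), where groups without overlap were seen in 2.04% of all genes for adjacent below control and in 2.18% for adjacent above it. The fifth sensing gene, Gpbar1, the membrane receptor for bile acids, known in macrophages and endothelium of liver, lay between 4.64 and 5.29 on all arrays (-0.07, SE 0.12).

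Within animals, 15 of the 34 members were lower in the tumour than in the animal's own adjacent liver in 4 of 4 paired mice (44.1%) and 4 were higher in 4 of 4 (11.8%), where 13% and 9.97% of all genes were. The members lower in all 4 mice were 7 of 13 synthesis genes, 4 of 6 uptake genes (Slc10a1, Slco1a1, Slco1b2 and Slco2b1), Abcb11 and Abcb1b of the export genes, and Nr1h4 and Klb of the sensing genes. Those higher in all 4 were Abcc4, Abcb1a, Slc51b and Acox2. Slc10a1 differed from its own adjacent liver by -0.62 in mouse 121, -4.00 in mouse 123, -0.93 in mouse 124 and -3.07 in mouse 81. Abcc4 differed by 0.70, 3.67, 5.52 and 3.60 in the same order. Only in mouse 81 were Cyp8b1, at 0.81, and Cyp7b1, at 0.80, above the animal's own adjacent liver. In the same mouse Cyp7a1 was at -0.95, Cyp27a1 at -1.49 and the uptake gene Slco1b2 at -4.36. Cyp7a1 was higher only in mouse 121, at 0.73.

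**Figure D4:**
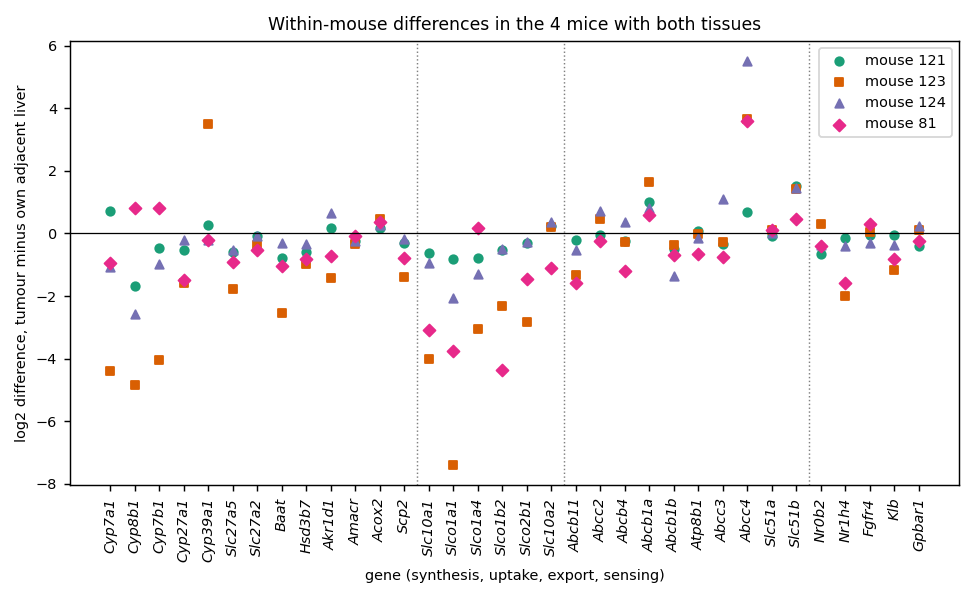
Log2 difference between tumour and own adjacent liver (y axis) of each of the 34 genes (x axis) in the 4 mice with both tissues, 1 symbol per mouse, with the 3 tumours of mouse 121 averaged. Mouse 123 has the lowest points over most synthesis and uptake genes, down to -7.40 for Slco1a1, and all 4 symbols are above 0 for Abcc4, Abcb1a and Slc51b.

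Tumours differed among themselves in most of these genes. The SD over tumour mice exceeded that over adjacent mice in 32 of the 34 members, all but Abcb1b and Gpbar1, and in 57.9% of all genes. Cyp7a1 had an SD of 2.38 over tumours and 0.84 over adjacent livers, Slco1b2 of 1.56 and 0.20, and Scp2 of 0.81 and 0.08. Against the control mean, the median over all members was -1.14 in tumour 90, -0.56 in tumour 123, -0.52 in tumour 81 and -0.33 in the unnumbered tumour of mouse 121, and it was -0.17, -0.03 and -0.10 in tumours 2 and 3 of mouse 121 and tumour 124. In tumour 93 it was 0.11. Of the 34 members 22 were below the lowest control and 9 above the highest in tumour 90, and 4 were below and 13 above in tumour 93. In adjacent livers 5 to 8 members were below and 11 to 18 above. The same share over all genes was not computed, and the range rests on only 3 controls. These counts therefore cannot be read as a trait of the members. The uptake genes had the lowest subgroup median in tumour 123, at -3.24, and the export genes the highest in tumour 124, at 0.83.

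The 3 tumours of mouse 121 also differed from each other, though they share an animal. Cyp8b1 ranged over 3.27 log2 units among them and Cyp7b1 over 2.84, against 4.84 and 4.03 between tumour mice. The unnumbered tumour was the lowest of the 3 for both genes and the highest for Cyp39a1, Abcb1a and Slc51b. The range within mouse 121 exceeded that between tumour mice in 2 members, Slc27a2 and Gpbar1, both of small spread.

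**Figure D5:**
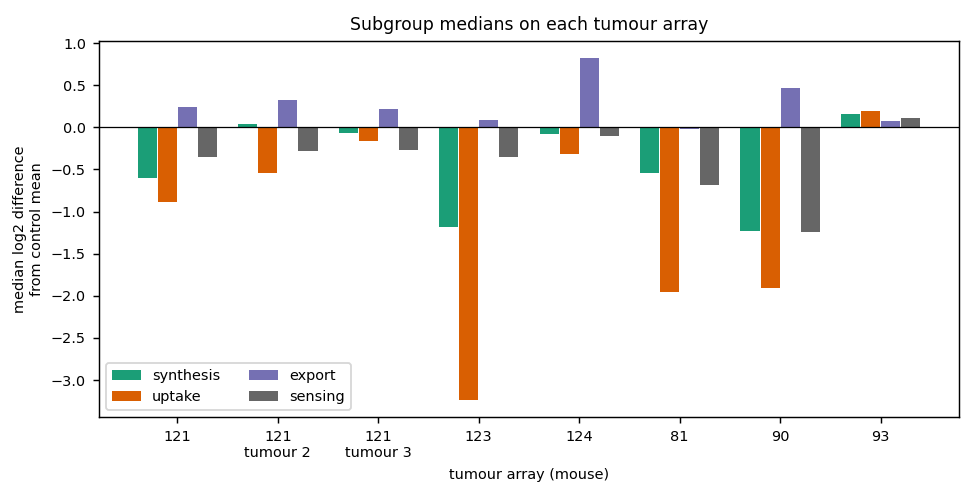
Median log2 difference from the control mean over the synthesis, uptake, export and sensing genes (bars) on each of the 8 tumour arrays (x axis, by mouse). Uptake medians run from -3.24 in tumour 123 to 0.20 in tumour 93, and the export median is highest in tumour 124.

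Between adjacent liver of the deleted mice and control liver, differences were small in most of these genes. The subgroup medians were 0.14 for synthesis, 0.22 for uptake, 0.07 for export and 0.07 for sensing, where all genes had a median of -0.01, and the lowest adjusted p of a member was 0.999. The adjacent livers lay above all controls in Cyp27a1, Slc27a5, Acox2 and Abcb4 and below them in Slc51a and Fgfr4, 6 of 34 members, where 4.22% of all genes had no overlap.

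Regulators and further genes of the pathway, from lists written with earlier results of these data known, are given next. Between tumour and adjacent liver 8.32% of all genes were lower and 6.95% higher at an unadjusted p under 0.05. Of 13 transcription factors measured, 0 passed and 3 were lower at an unadjusted p under 0.05 between tumour and adjacent liver, Cebpa at -0.49 (SE 0.18, adjusted p = 0.188), Nr5a2, the receptor LRH-1 that drives Cyp7a1 and Cyp8b1, at -0.42 (SE 0.16, adjusted p = 0.214), and Foxa2 at -0.44 (SE 0.20, adjusted p = 0.314). Hnf4a, a main activator of these genes, named after its value was seen, was at -0.08 (SE 0.13, adjusted p = 0.803). Esr1, the estrogen receptor, was lower in adjacent liver (-1.16, SE 0.25, adjusted p = 0.701) and in tumours (-1.21, SE 0.25, adjusted p = 0.0885) than in every control, and Nr1h3 was at -0.25 (SE 0.14) in adjacent liver.

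Of 15 further synthesis and detoxification genes 0 passed. Between tumour and adjacent liver 5 were lower and 1 higher at an unadjusted p under 0.05. Over all genes 8.32% were lower and 6.95% higher there. Sult2a8, a liver sulfotransferase that acts on bile acids, was -3.21 (SE 0.78, adjusted p = 0.0831) against adjacent and -2.86 (SE 0.91, adjusted p = 0.206) against control liver, from 4.24 in tumour 81 to 10.08 in tumour 93. Cyp46a1, a cholesterol hydroxylase best known in neurons, was at -0.55 (SE 0.15, adjusted p = 0.111), and Ch25h, another cholesterol hydroxylase, at 0.65 (SE 0.22, adjusted p = 0.245) against control. Between adjacent and control liver Acot8 was at 0.36 (SE 0.15) and Cyp46a1 at 0.21 (SE 0.18). Of 12 further transport and canaliculus genes 0 passed. Between tumour and adjacent liver 4 were lower at an unadjusted p under 0.05, beside the same 8.32% of all genes. The carnitine carrier Slc25a20 was at -0.77 (SE 0.23, adjusted p = 0.137) and Abcc6 at -0.71 (SE 0.23, adjusted p = 0.153) against adjacent liver. Against control Abcc6 was at -0.84 (SE 0.27, adjusted p = 0.202) and Abcg5, a subunit of the canalicular sterol pump, at 0.88 (SE 0.29, adjusted p = 0.225). In adjacent against control liver Slc25a20 was at 0.73 (SE 0.28) and the organic anion carrier Slc22a7 at -0.93 (SE 0.48).

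Markers of other cells also differed between tumour and adjacent liver. Between tumour and adjacent liver 3 of 9 macrophage markers were lower and 0 higher at an unadjusted p under 0.05. Over all genes 8.32% were lower and 6.95% higher at that threshold. Clec4f of Kupffer cells was at -1.85 (SE 0.59). Differences above 0 were seen in 3 of the 9, Cd68 at 0.94 (SE 0.49), Itgam at 0.74 (SE 0.51) and Adgre1 at 0.24 (SE 0.53). Of 10 stellate cell and fibroblast markers 5 were higher, such as Col1a1 at 1.25 (SE 0.38), and 2 lower, at an unadjusted p under 0.05. The mean log2 level of the macrophage list lay between 5.54 and 6.74 in adjacent livers and 4.74 and 5.94 in tumours, and that of the stellate cell list between 5.51 and 6.64 and between 6.06 and 6.94. Of 8 cholangiocyte markers 2 were higher, Sox9 at 0.89 (SE 0.29) and Tspan8 at 3.31 (SE 0.80), with a list mean of 3.84 to 4.20 in adjacent livers and 4.22 to 4.87 in tumours. The hepatocyte list had a median difference of -0.04 with 0 of 8 past an unadjusted p under 0.05. The part of other cells in the member differences was not tested.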

How the data were processed

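The authors deposited log2 expression values of one-colour biotin arrays after whole-transcriptome amplification, per the labels; the submitters' processing notes list the tools RMA and Partek. The array model, the probe design and the build are each not given in the sources read here. RMA puts arrays on a common distribution and is known to compress differences at low intensity. The values span 1.47 to 12.9, with array medians of 4.37 to 4.50. Of 24479 probe sets 23281 had 1 symbol, 0 several and 1198 none here; the brighter of duplicate symbols was kept, giving 23279 genes.

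The 3 tumours of mouse 121 were averaged. All groups were fitted together with limma 3.58.1 in R 4.3.3 (lmFit, eBayes with an intensity trend, no block), two-sided, with Benjamini-Hochberg over all genes and a threshold of 0.05; the code was tested on simulated data. Single-gene p-values measure the spread between mice. A gene is dim where its group mean is under 4.43, the median of all values. No batch is named in the labels. Members and lists were chosen with earlier results of these data known. All members are described, and sample values are given for those with an unadjusted p under 0.05 in a tumour comparison (for some, tumours as lowest, median and highest mouse) and for Cyp7a1, Abcb11, Slc10a1, Nr1h4 and Nr0b2. Of each further list, members past the threshold, or else the 2 with the smallest p, are named. Some genes of those lists are not reported here.

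Mouse numbers pair tumour and adjacent liver of 4 animals, per the labels; deviations from group means correlated at 0.0789 on average in these pairs (0.0349 to 0.0998), inside the range of -0.328 to 0.317 for pairs numbered differently, of which tumour 93 with adjacent liver 1931 was highest. The pairing thus rests on the labels alone. Whether tumour 93 and adjacent liver 1931 share an animal is not known. Promoter and gene order data are RefSeq's, GRCm38.p6; all 34 genes matched the gene table.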

Additional observations from a re-analysis of the deposited data

Results flagged for a closer look

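Of 68 groups of values tested (each member in adjacent livers and in tumour mice), 5 had 1 sample set far apart from the rest, where chance gives about 1 in 20. In adjacent liver of mouse 121 Slc10a1 was low at 10.13 against 10.79 to 10.94 in the other adjacent livers, and Slco1a1 was low at 8.52 against 10.13 to 10.77. In adjacent liver of mouse 124 Acox2 was high at 9.48 against 9.20 to 9.25. In tumours, Abcc3 was high in mouse 124 at 10.49 against 8.72 to 9.36, and Fgfr4 was low in mouse 90 at 5.13 against 6.01 to 6.36.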

How the results depend on the processing

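In tumour against adjacent liver, 36 genes passed over all genes; the count was 23 with quantile normalization on top, 16 with median centring, 181 with dim genes filtered out, 8 with only the 2 groups compared, 87 with 8 tumours as separate values and 157 with the unnumbered tumour of mouse 121 only. A random replicate block for the mouse, with 8 tumours as separate values, gave 206, and a fixed replicate block in 4 pairs 0. Leaving out 1 mouse from 1 group at a time, as in all such ranges below, gave 5 to 743. For tumour against control, 6 passed; the count was 18 with median centring, 35 with dim genes filtered out, 3 without the intensity trend, 31 with 8 separate tumours, 33 with the unnumbered tumour only, 24 with the random replicate block, and 0 to 242 with 1 mouse left out. For adjacent against control it was 0, and 0 to 1 with 1 mouse left out; 1059 genes had an unadjusted p under 0.05. Of members, 1 (Abcc4) passed in tumour against adjacent liver with dim genes filtered out or with the random replicate block, and 0 to 8 with 1 mouse left out; against control 0 to 1 did so. The uptake median of adjacent against control liver was 0.22 and lay between 0.05 (without control 10, value 0.048) and 0.33 with 1 mouse left out. The cause of these shifts was not tested. The random replicate block with separate tumours changed no other call of a member. Slc51a was not tested where dim genes were filtered out. Of 781 member values in tumour against adjacent liver 10 changed sign under an alternative, of 747 against control 17, and of 747 in adjacent against control 40, none of them a called value. The small number of arrays limits precision, and members under the median level lie near background.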

Other observations

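Tumours held single departures in detoxification genes that the group comparisons do not show. These genes were named after their values were seen. In tumour 2 of mouse 121 Cyp2b10, the P450 typically induced through the receptor CAR, was at 10.50, where the other 15 arrays lay between 3.65 and 6.54. Sult2a1, a bile acid sulfotransferase, was at 8.38 in the same tumour and 5.61 in the unnumbered tumour of that mouse, and between 2.31 and 3.08 on all other arrays. The third tumour of the animal had 4.11 for Cyp2b10 and 2.85 for Sult2a1.

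Tumour 81 was the lowest of all arrays for Nr1i3, which encodes CAR (5.93), Cyp3a11 (9.08), Cyp2a12 (7.63) and Ugt1a1 (6.34), which metabolise bile acids, drugs or bilirubin, and for Slco1b2 (6.67), which carries bilirubin conjugates. The same tumour kept Cyp7b1 at 10.30 and Cyp8b1 at 8.76, whereas tumours 90 and 123 had low Cyp7b1 and Cyp8b1 with Cyp3a11 at 11.48 and 11.36. These are single arrays with no replicate of the tumour.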
